A study of Danio rerio with 9 samples.

Results

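Matrix metalloproteinases (MMPs) and their tissue inhibitors (TIMPs) were followed in 9 zebrafish melanomas through 8 genes chosen by symbol: the proteases mmp2, mmp9, mmp11b, mmp13a, mmp14a and mmp14b and the inhibitors timp2a and timp2b. These were 8 of the 30649 named rows of the count tables. All 8 rows were found, and 7 had enough reads to be tested, mmp11b being too low. The tumours had grown in fish raised from embryos of the genotype p53-/-; mitfa:BRAFV600E; Na-/-, so every tumour of both groups lacked p53 and carried BRAF V600E under mitfa, a promoter active in pigment cells. In 5 tumours (R157 to R161) the MiniCoopR vector that was injected held CDK13 R860Q, the mutant form of a kinase that acts on RNA polymerase II, and in 4 tumours (R162 to R165) it carried EGFP. The labels call the CDK13 status of the EGFP tumours wild-type. They give no age, and whether the tumours are from separate fish is not stated. The p-values therefore reflect only how these 9 samples vary.

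MMPs are zinc-dependent enzymes that cut collagens and other matrix proteins, and most are made as inactive precursors. The membrane-bound MMP14 is best known in mammals for activating MMP2 at the cell surface, where TIMP2 can hold the precursor of MMP2 in place, while an excess of TIMP2 blocks the enzymes. In tumours these genes are made by cancer cells and also by fibroblasts, leukocytes and epidermis. In bulk tumour RNA, fewer cells of a type and less RNA per cell cannot be told apart.

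Each tumour gave 1 library of ribosome-depleted RNA, with 7252950 to 11150732 counts in R860Q and 5518472 to 15120176 in EGFP tumours. Levels are given as normalised CPM, counts per 1000000 of library size after TMM scaling, on which 3 counts (the most that a count of 0 allows, counting error only) are worth 0.164 to 0.734 CPM. CPM are not divided by gene length, so levels are compared between tumours and not between genes. The row for human CDK13 was at 16.2 to 751 CPM in R860Q tumours and at 0 to 0.489 CPM in EGFP tumours. Melanocyte genes were present in every tumour: pmela, a melanosome protein, lay between 636 and 5686 CPM in R860Q tumours and between 1590 and 3426 CPM in EGFP tumours. No pair of libraries agreed within sampling noise, with a lowest chi-square per degree of freedom of 47.0.

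None of the 7 tested genes differed detectably between the groups, and the main feature of these data was how far single tumours lay apart. Under the quasi-likelihood test of edgeR, adjusted by Benjamini-Hochberg over 15169 genes, 0 of the 7 passed at 0.05, against 0% of all genes tested. Without adjustment 0 members had a p under 0.05, against 6.14% of all genes (4.15% on the lower side), and DESeq2 called 0 members, against 0.454% of the 14977 genes to which it gave an adjusted p. The groups overlapped in all 7, while 1.43% of all genes did not overlap. By edgeR's log2 fold change 3 members were above 0 and 4 below it (R860Q over EGFP), with a median of -0.37 beside -0.03 for all genes. Of those above 0, mmp14b (0.0038) and timp2b (0.18) had a difference of mean log2 CPM below 0 (-0.021 and -0.11), and timp2a did not. Exact two-sided permutation tests over the 126 ways to choose 5 of 9 tumours gave p-values between 0.365 and 0.929, where 0.00794 is the smallest possible.

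**Figure D1:**
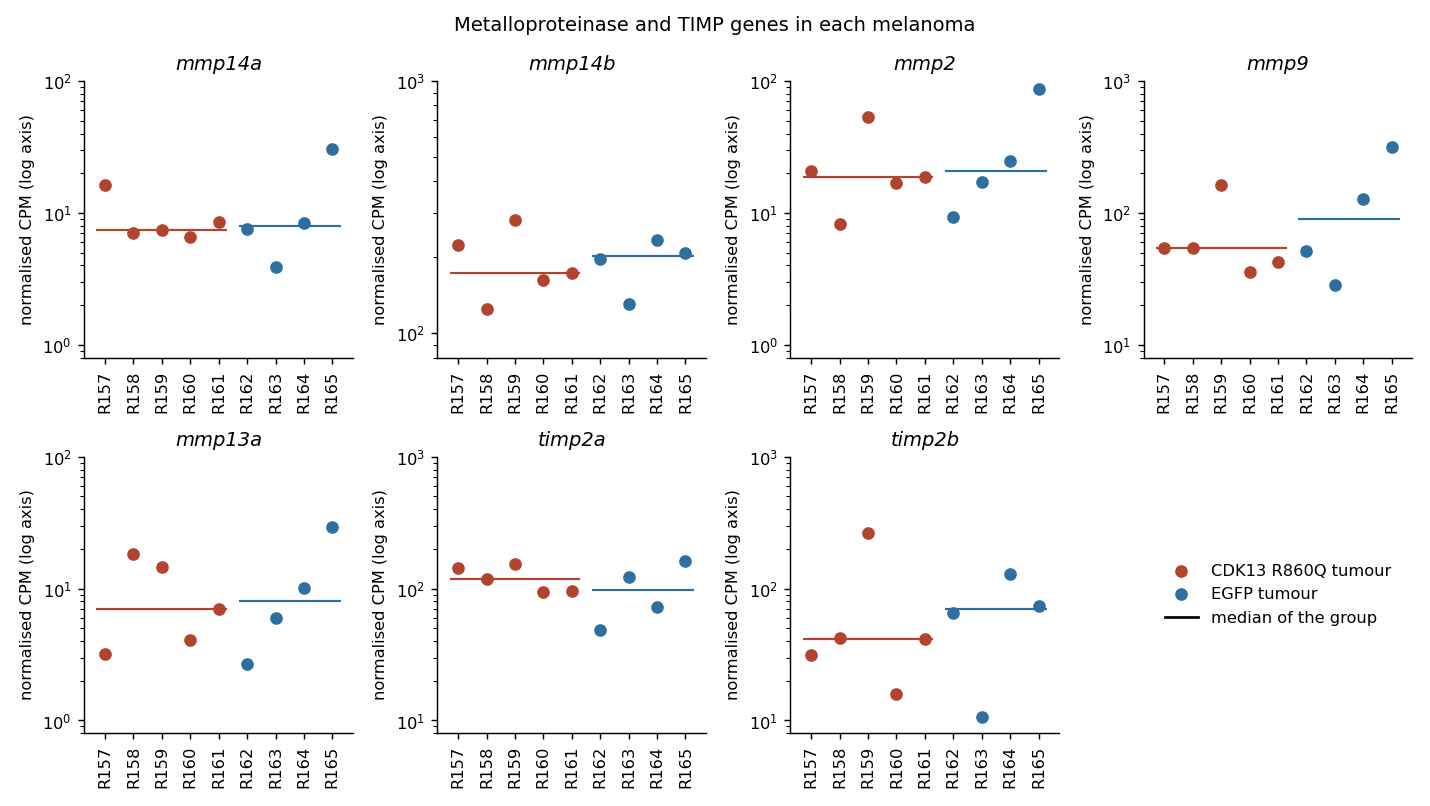
Normalised CPM (log axis) of the 7 tested genes in each tumour, CDK13 R860Q tumours on the left and EGFP tumours on the right of each panel, with a line at each group's median. The groups overlap in every panel, and mmp2 and mmp9 are highest in EGFP R165 and next highest in R860Q R159.

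The membrane-type protease gene mmp14b varied least. It was at 224, 125, 282, 162.6 and 173 CPM in R860Q tumours R157 to R161, and at 197, 131, 235 and 208 CPM in EGFP tumours R162 to R165. The ranges of the groups lay over each other, with the highest and the lowest tumour both in the R860Q group. Means were 193 ± 61.1 CPM in R860Q and 193 ± 44.1 CPM in EGFP tumours (n = 5 and 4, SD). The log2 fold change was 0.0038 ± 0.31 (SE; 95% interval -0.68 to 0.69; edgeR adjusted p = 0.999). Its interval was the narrowest of the 7 and leaves out a log2 change of 1 in either direction. A sign this close to 0 turned with the scaling: with DESeq2's size factors the value was -0.0025.

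Its paralogue mmp14a, which codes for the other MMP14 protein of zebrafish, was at 16.2, 7.05, 7.43, 6.54 and 8.53 CPM in R860Q tumours and at 7.58, 3.87, 8.44 and 30.6 CPM in EGFP tumours. A single tumour stood high in each group, R860Q R157 and EGFP R165, and the other 7 lay between 3.87 and 8.53 CPM. The log2 fold change was -0.47 ± 0.55 (SE; 95% interval -1.69 to 0.74; edgeR adjusted p = 0.950). It turned to 0.48 without EGFP R165. Reads on mmp14a were 2.63% to 7.24% of those on mmp14b in R860Q tumours and 2.96% to 14.7% in EGFP tumours, the highest share being that of EGFP R165.

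The gelatinase gene mmp2, whose enzyme MMP14 activates in mammals, was at 20.8, 8.19, 53.5, 16.7 and 18.6 CPM in R860Q tumours and at 9.29, 17.2, 24.6 and 86.8 CPM in EGFP tumours. R860Q R159 and EGFP R165 stood far above the other 7 tumours, of which the highest had 24.6 CPM. Means were 23.6 ± 17.4 CPM in R860Q and 34.5 ± 35.4 CPM in EGFP tumours (n = 5 and 4, SD). The edgeR log2 fold change was -0.56 ± 0.67 (SE; 95% interval -2.05 to 0.93; edgeR adjusted p = 0.955). The value was -1.11 without R860Q R159 and 0.46 without EGFP R165.

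The other gelatinase gene, mmp9, is known in zebrafish from leukocytes and from wounded epidermis. It was at 54.4, 54.0, 163.05, 35.5 and 42.4 CPM in R860Q tumours and at 51.1, 28.4, 128 and 317 CPM in EGFP tumours. As for mmp2, EGFP R165 was highest and R860Q R159 next, here followed by EGFP R164, and the other 6 tumours lay between 28.4 and 54.4 CPM. Means were 69.9 ± 52.7 CPM in R860Q and 131 ± 131 CPM in EGFP tumours (n = 5 and 4, SD). At -0.91 ± 0.69 (SE; 95% interval -2.44 to 0.62; edgeR adjusted p = 0.938), it had the largest log2 fold change of the 7 members in size. Single tumours moved it from -1.49 (without R860Q R159) to 0.014 (without EGFP R165).

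The collagenase gene mmp13a was at 3.21, 18.5, 14.6, 4.07 and 6.97 CPM in R860Q tumours and at 2.69, 6.02, 10.2 and 29.2 CPM in EGFP tumours. EGFP R165 was again the highest tumour, but here R860Q R158 came next and then R159. The log2 fold change was -0.37 ± 0.70 (SE; 95% interval -1.92 to 1.18; edgeR adjusted p = 0.979), and 0.57 without EGFP R165. The remaining protease, mmp11b, of the stromelysin-3 family that is activated inside the cell, had 2, 0, 1, 2 and 3 reads in R860Q tumours R157 to R161 and 0, 2, 6 and 0 in the EGFP tumours in order. These are 8 reads in each group, and at most 0.873 CPM, so no difference could be detected at this depth.

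**Figure D2:**
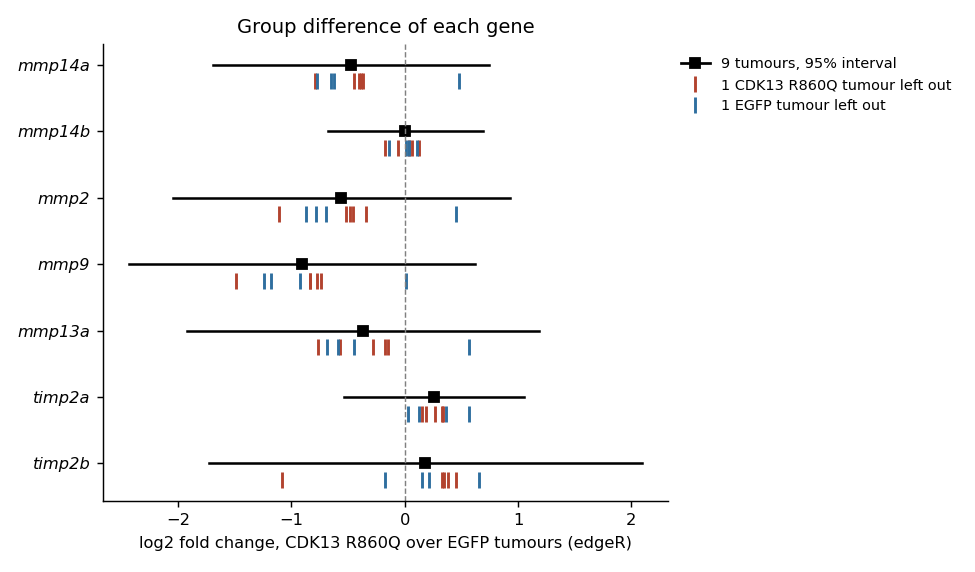
Log2 fold change of each gene, CDK13 R860Q over EGFP tumours, by edgeR (squares, with 95% intervals) and with 1 tumour left out (ticks, red for an R860Q and blue for an EGFP tumour). All 7 intervals include 0, and the blue tick farthest right for mmp2, mmp9, mmp13a and mmp14a is the fit without EGFP R165.

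Of the inhibitors, timp2a varied less among tumours than timp2b. The gene timp2a was at 143, 118, 154, 94.95 and 96.1 CPM in R860Q tumours and at 48.7, 123, 72.0 and 161.4 CPM in EGFP tumours. All R860Q tumours lay inside the EGFP range, whose ends were EGFP R162 and R165. Means were 121 ± 26.8 CPM in R860Q and 101 ± 50.7 CPM in EGFP tumours (n = 5 and 4, SD). The log2 fold change was 0.26 ± 0.36 (SE; 95% interval -0.54 to 1.05; edgeR adjusted p = 0.967), or 0.026 without EGFP R162 and -0.23 without EGFP R162 and R164.

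The second TIMP2 gene, timp2b, was at 31.2, 42.2, 264, 15.8 and 41.7 CPM in R860Q tumours and at 65.5, 10.6, 128 and 74.0 CPM in EGFP tumours. The highest tumour, R860Q R159, was 24.98 times the lowest, EGFP R163, the widest range of the 7 genes. Without R860Q R159 the R860Q tumours would span 15.8 to 42.2 CPM, within the EGFP range. Means were 78.9 ± 104 CPM in R860Q and 69.5 ± 48.1 CPM in EGFP tumours (n = 5 and 4, SD). The log2 fold change was 0.18 ± 0.86 (SE; 95% interval -1.73 to 2.09; edgeR adjusted p = 0.994), and -1.08 without R860Q R159. The difference of mean log2 CPM had the other sign, at -0.11, so no direction can be given for timp2b.

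The spread among tumours of a group differed between these genes. The SD of log2 CPM within groups was 1.52 for timp2b, 1.23 for mmp13a, 1.19 for mmp9 and 1.14 for mmp2, wider than in 94.9%, 90.3%, 89.4% and 88.2% of the 15169 genes tested. For mmp14a it was 0.89, wider than in 78.7% of genes. By contrast timp2a, at 0.56, was close to the median of all genes (0.57), and mmp14b, at 0.42, varied more than 27.4% of genes did. Over all 9 tumours the highest level was 10.6 times the lowest for mmp2, 11.2 times for mmp9 and 10.9 times for mmp13a, against 3.32 times for timp2a and 2.26 times for mmp14b.

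**Figure D3:**
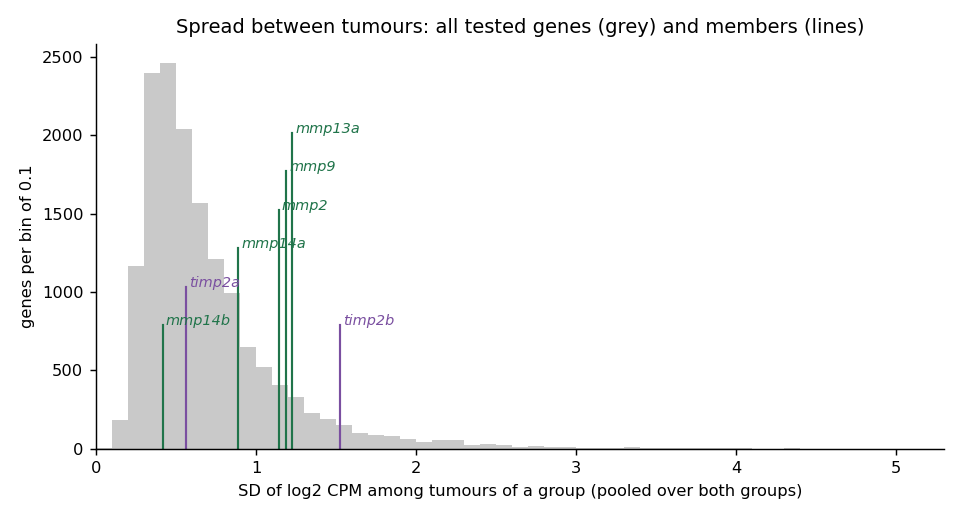
Number of tested genes (grey bars) by the SD of their log2 CPM among tumours of a group, pooled over both groups, with lines at the proteases (green) and inhibitors (purple). The lines of mmp14b (0.42) and timp2a (0.56) stand in the bulk of the genes, and those of mmp2, mmp9, mmp13a and timp2b lie between 1.14 and 1.52 in the right tail.

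EGFP R165 and R860Q R159 stood apart in more than their metalloproteinases. EGFP R165, the deepest library, was highest of the 9 in mmp2, mmp9, mmp13a, mmp14a and timp2a, at 0.61 to 2.17 above the mean on the log2 scale. Summed over 9 measured keratinocyte markers it had 2090 CPM, the highest of the EGFP tumours (486 to 2090 CPM), and R860Q R159 had 1532 CPM, the highest of the R860Q tumours (339 to 1532 CPM). Of these markers krtt1c19e was at 0 reads in 4 tumours, and the others had reads in every tumour.

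In 8 measured fibroblast markers, all with reads in every tumour, EGFP R165 had 722 CPM (EGFP range 153 to 722 CPM), while R860Q R159 had 84.4 CPM (R860Q range 44.3 to 451 CPM). Skeletal muscle genes summed to 4692 CPM in R860Q R159 (R860Q range 25.7 to 4692 CPM) and to 16.6 CPM in EGFP R165 (EGFP range 8.15 to 1141 CPM). Of the 14 muscle genes tnnt3a had no reads in any tumour, and 5 others were at 0 in some. All 11 tested muscle genes lay above 0 (R860Q over EGFP), with a median log2 fold change of 2.59 beside -0.03 for all genes. By edgeR 0 of them had an unadjusted p under 0.05, against 6.14% of all genes. The median of the muscle sums was 468 CPM in R860Q and 14.2 CPM in EGFP tumours. In R860Q R159 the 10 melanocyte genes summed to 2457 CPM, the lowest of the R860Q tumours (2457 to 14798 CPM) and below all EGFP tumours (5503 to 11709 CPM). R860Q R160, at 4355 CPM, was below all EGFP tumours too, and its muscle genes summed to 3158 CPM. Of the melanocyte genes pmelb had no reads in 6 tumours. Of these sums pmela alone gave 636 CPM in R159 and 2637 CPM in R160. Like the sums, dct and tyr were low in both, though lowest of the R860Q group in R160 and next lowest in R159. By contrast mitfa was highest of the R860Q group in R160 (189 CPM) and lowest in R159 (63.2 CPM). For sox10 R159 and R160 had 360 and 410 CPM, within the R860Q range (293 to 590 CPM) and the EGFP range (300 to 782 CPM).

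Leukocyte markers did not single out these tumours alike. The 12 macrophage genes, all with reads in every tumour, summed to 679 to 1482 CPM in R860Q tumours (688 CPM in R159) and to 659 to 2365 CPM in EGFP tumours (2365 CPM in R165). The 9 neutrophil genes, among them mmp25b, summed to 99.4 to 276 CPM in R860Q tumours, with R159 the lowest. In EGFP tumours they summed to 143 to 507 CPM, with R165 the highest, and cpa5 had no reads in 1 tumour. Of these sums srgn alone gave 56.2 CPM in R159 and 414 CPM in R165. Weighting the genes alike, as mean log2 CPM less each gene's mean, changed the order. R860Q R158 was then lowest of its group (-0.82, R159 -0.48), and EGFP R164 highest (0.86, R165 0.60). In npsn R159 was the highest R860Q tumour, at 10.3 CPM. In mpx and lyz it came next to R161, with 10.78 beside 10.80 CPM and 5.68 beside 5.83 CPM. Of the EGFP tumours R165 was highest in npsn (11.4 CPM). In mpx and lyz EGFP R164 was highest, at 15.4 CPM (R165 11.8 CPM) and 6.11 CPM (R165 5.63 CPM). The part of these cell types in the levels of the proteases was not tested.

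**Figure D4:**
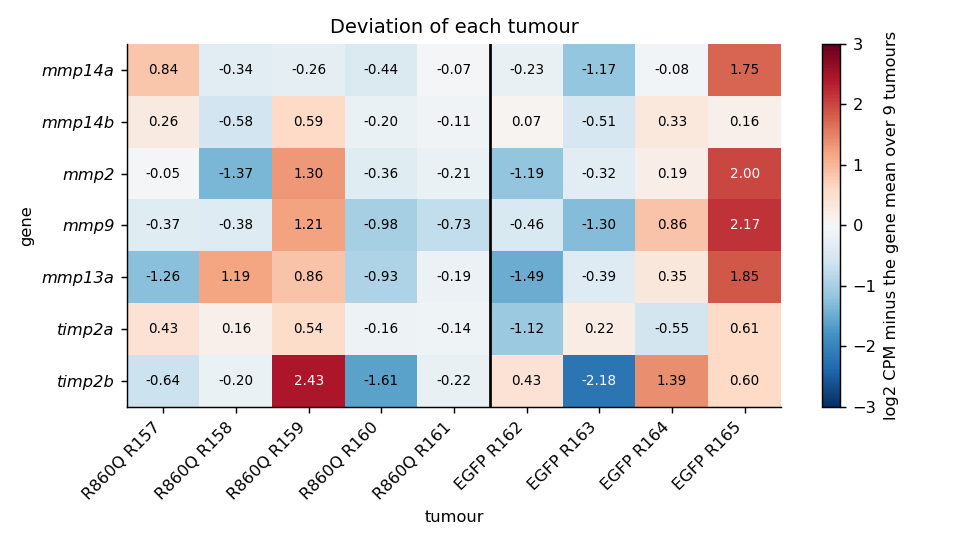
Log2 CPM of each gene in each tumour, less its average across all 9 tumours (colour and printed value), with R860Q tumours left of the line and EGFP tumours right of it. EGFP R165 is positive in all 7 genes, and R860Q R159 in 6 of 7, with 2.43 for timp2b and -0.26 for mmp14a.

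Ratios of reads within a tumour, which do not depend on library scaling, were compared by exact two-sided permutation with adjustment over 5 ratios. As genes differ in length, only their change between tumours is read. The summed MMP14 genes over the summed TIMP2 genes had a mean log2 ratio of 0.13 ± 0.50 in R860Q and 0.29 ± 0.39 in EGFP tumours (n = 5 and 4, SD; exact permutation p = 0.635, adjusted p = 0.794). This ratio moved by 2.57 times over the 9 tumours. The ratio of mmp2 to the TIMP2 genes averaged -3.17 ± 0.62 in R860Q and -2.74 ± 0.91 in EGFP tumours (exact permutation p = 0.492, adjusted p = 0.794), from -4.26 in R860Q R158 to -1.44 in EGFP R165.

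The balance between the TIMP2 paralogues moved most of the 5 ratios. The log2 ratio of timp2a to timp2b was 2.19, 1.48, -0.77, 2.56 and 1.201 in R860Q tumours R157 to R161 and -0.43, 3.53, -0.83 and 1.12 in EGFP tumours R162 to R165, a range of 20.4 times. Reads on timp2b outnumbered those on timp2a in R860Q R159 and in EGFP R162 and R164, and in no other tumour. The groups did not differ in it detectably (means 1.33 ± 1.30 and 0.85 ± 1.97, n = 5 and 4, SD; exact permutation p = 0.627, adjusted p = 0.794). For mmp14a to mmp14b (exact permutation p = 0.881) and for mmp9 to mmp2 (exact permutation p = 0.603) the adjusted p was 0.881 and 0.794.

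Across the 9 tumours 21 pairs of members were correlated on log2 CPM, and none passed after adjustment over the 21 (exact permutation tests). Of the pairs 20 had a positive r, with a median of 0.542. The same few genes recur in these pairs, so the pairs are not independent. The share of positive r among pairs of all tested genes was not computed. The closest of the 21 was mmp2 with mmp9 (Pearson r = 0.814, exact permutation p = 0.00846, adjusted p = 0.0998; Spearman rho = 0.717, exact permutation p = 0.0369, adjusted p = 0.182). It rests on EGFP R165 and R860Q R159: without them r was 0.241. Centred within groups it was 0.812.

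Both pairs that come next by size of r were of timp2b with a protease, and neither passed after adjustment. With mmp14b the r of timp2b was 0.777 (exact permutation p = 0.0143, adjusted p = 0.0998; rho = 0.700, exact permutation p = 0.0433, adjusted p = 0.182). It was 0.850 without the tumours farthest from the median of mmp14b, R860Q R158 and EGFP R163 (exact permutation, adjusted p = 0.194). R860Q R159, the highest tumour in both genes, stayed in, and the pair was not tested without it. With mmp9 the r of timp2b was 0.774 (exact permutation p = 0.0138, adjusted p = 0.0998; rho = 0.833, exact permutation p = 0.00827, adjusted p = 0.174). It was 0.901 without R860Q R159 and EGFP R165, the tumours farthest from the median of mmp9 (exact permutation, adjusted p = 0.104). The pair of inhibitors, timp2a and timp2b, was the 1 pair below 0, at r = -0.011 (exact permutation p = 0.978, adjusted p = 0.978; rho = 0.10, exact permutation p = 0.810, adjusted p = 0.850), and at 0.577 without EGFP R162 and R164.

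**Figure D5:**
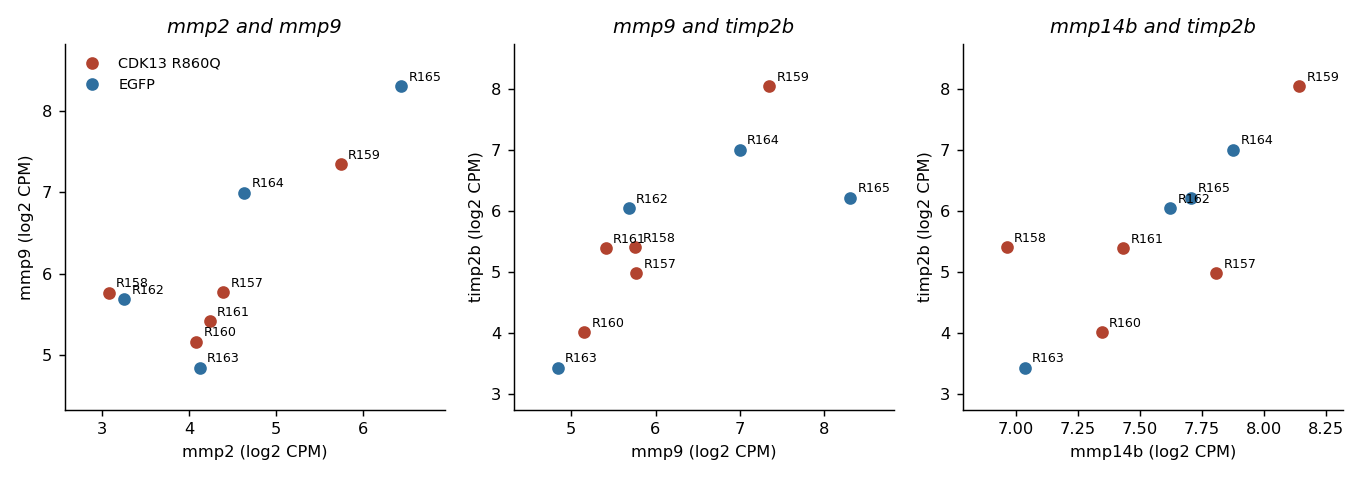
Log2 CPM of mmp9 against mmp2 and of timp2b against mmp9 and mmp14b, 1 point per tumour, red for CDK13 R860Q and blue for EGFP. In the first panel R165 and R159 lie far from the other 7 tumours, without which r falls to 0.241, while r is 0.774 in the second and 0.777 in the third panel.

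Among all tested genes with a gene name, those most like each member over the 9 tumours were taken by Pearson r of log2 CPM, as a description. For mmp2 these were gna14, a G protein subunit (r = 0.985), the neutrophil-attracting chemokine cxcl8a (0.964) and the phospholipase plcg2 (0.961). For mmp9 they were dnajc3b (0.971), sh2d3cb (0.953) and vwf, von Willebrand factor (0.953), and for mmp13a fam129ba (0.966), tapbp.1 (0.960) and chsy1 (0.960). The most like mmp14a were snx33 (0.967), rhoub (0.923) and prkcha (0.913), and the most like mmp14b were sparc, a collagen-binding matrix protein (0.923), ctgfb (0.921) and trabd (0.903). For timp2a they were creld1b (0.972), copa (0.964) and vcpip1 (0.955), and for timp2b adcyap1b (0.944), zdhhc13 (0.941) and clpxa (0.921). As the highest values over all tested genes in 9 tumours, these r are partly set by the choice itself. The genes named for mmp2 and mmp9 were each highest in EGFP R165 and next highest in R860Q R159, as mmp2 and mmp9 were. For gna14 these were 6.83 and 4.66 CPM, with 2.18 CPM in the next tumour, EGFP R164. How far these r hold without R165 and R159 was not tested. Reads were few in EGFP R162, at 2 for gna14 and 4 for cxcl8a. Other named genes were also low in some tumours. Reads on creld1b numbered 2 in EGFP R162 and 5 in EGFP R164, and those on vwf 3 in R860Q R160. For adcyap1b there were 0 reads in EGFP R163 and 570 in R860Q R159.

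The other genes of the pathway were taken from lists. Beside the counts below, 6.14% of all genes tested had an unadjusted p under 0.05 by edgeR (4.15% on the lower side). The middle log2 value over all of them was -0.03, also below 0. Whether any list as a whole lay lower than the other genes was not tested, and the list counts were not repeated without EGFP R165. Of 21 further MMP genes 16 were in the files and 6 had enough reads, of which 0 passed by edgeR over all genes (0 at an unadjusted p under 0.05; median log2 fold change -0.47, with 5 on the lower side). The lowest p-values were those of mmp30 (-0.94 ± 0.68 SE, or -0.36 without EGFP R163) and mmp28 (-0.56 ± 0.52, or -0.28 without EGFP R162). Both had few reads, with 1 and 5 on mmp30 and 4 and 4 on mmp28 in R860Q R160 and R161. Of 9 other TIMPs and protease inhibitors 7 were in the files and 5 were tested; 0 passed by edgeR (4 at an unadjusted p under 0.05), and 3 lay on the lower side. In this list timp4.2, another TIMP, was at 1.57, 1.04, 1.02, 0.582 and 3.27 CPM in R860Q tumours and at 2.45, 2.47, 7.28 and 8.09 CPM in EGFP tumours (-1.77 ± 0.58; adjusted p = 0.680). R860Q R161 alone reached into the EGFP range. Reads on timp4.2 were few, at 4 to 23 in R860Q tumours.

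Genes that activate MMPs or work with them on the cell surface numbered 17, of which 13 were tested, 10 on the lower side (median -0.33) and 0 passing by edgeR (1 at an unadjusted p under 0.05). The urokinase-type plasminogen activator gene plaua was at 1.55 ± 0.629 CPM in R860Q and 5.18 ± 3.67 CPM in EGFP tumours (n = 5 and 4, SD; -1.75 ± 0.51 SE; edgeR adjusted p = 0.680), and its log2 fold change was -1.14 without EGFP R165. Its relative plaub stood at -2.16 ± 1.05, or at -0.40 without EGFP R165, which had 21.1 CPM. Reads on plaub were few, at 4, 5, 5 and 3 in R860Q R158 to R161 and 7 in EGFP R163. Those on plaua numbered 8 to 26 in R860Q tumours. Of 17 tested ADAM and ADAMTS proteases, which shed surface proteins or cut matrix, 12 lay on the lower side (median -0.21). By edgeR 0 passed and 2 had an unadjusted p under 0.05, adam19b at -2.41 ± 0.68 (-1.68 without EGFP R165) and adam8a at -0.91 ± 0.38. Reads on adam19b were few in R860Q R158, R159 and R161, at 3, 7 and 9.

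The matrix proteins that serve as substrates gave 17 tested genes, 13 on the lower side with a median of -0.68. By edgeR 0 passed; with no adjustment, a p under 0.05 was reached by 2 genes above 0 and by 4 below 0. The lowest p-values were on the higher side, the fibronectin fn1b at 1.04 ± 0.32 and the proteoglycan vcana at 1.83 ± 0.60 (SE). The other fibronectin, fn1a, lay on the lower side at -0.91 ± 0.60. Reads on vcana were few, 129 in all and 3 to 7 in each EGFP tumour (0.164 to 1.22 CPM). The 4 genes below 0 with an unadjusted p under 0.05, named after their values were seen, were col1a1a (-1.83), col1a2 (-1.63), dcn (-1.45) and lum (-1.37). The first 2 are collagen I genes and the others proteoglycan genes. Without EGFP R165 they stood at -0.24, -0.46, -0.59 and -0.61. All 4 are also among the fibroblast markers, of which 7 were tested, with a median of -1.37 and 6 below 0, and whose sum was highest in EGFP R165; the part of fibroblasts in these values was not tested. Of 21 tested genes for AP-1, Ets and NF-kB factors and cytokines that induce MMPs, 16 were on the lower side (median -0.19; 0 passing by edgeR and 2 at an unadjusted p under 0.05). The cytokine il1b stood at 1.58 ± 0.67 (1.01 without R860Q R158), with 115 ± 90.1 CPM in R860Q and 38.1 ± 29.8 CPM in EGFP tumours (n = 5 and 4, SD), and tnfb at -1.03 ± 0.42. DESeq2 gave no adjusted p to col1a1a. For the other genes named here from these lists, DESeq2's adjusted p lay between 0.0813 (adam19b) and 0.9746 (mmp28).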

How the data were processed

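Bowtie and HTSeq are named without versions, and danRer10 (GRCz10) as the build, per the submitters' processing notes; the sources used here give no strand setting. The authors deposited raw read counts per gene symbol, 1 table per tumour, from randomly primed libraries of ribosome-depleted RNA per the labels' protocols. The 1 line per table with neither a name nor a count was left out. Reads that match both mmp14a and mmp14b, or both timp2a and timp2b, could be split either way by the counting, which was not tested.

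Counts were scaled by TMM, genes with few reads were removed by filterByExpr (at least 10 counts, total at least 15), and the groups compared in edgeR 4.0.16 (R 4.3.3) by a robust quasi-likelihood fit with group as its only term, adjusted by Benjamini-Hochberg over all tested genes. Log2 CPM used a prior count of 2. Intervals are 95% intervals from the same fit. The test was checked on simulated counts. Ratios, pairs and single genes were tested by exact permutation. The design had foreseen 28 pairs, and 21 were possible without mmp11b. Alternatives used DESeq2 1.42.0, limma 3.58.1 (voom), other scalings and filters, a muscle covariate and fewer tumours.

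Members, gene lists, tests and alternatives were chosen with earlier results of these data known. In each list the genes named were those that passed or else the 2 with the smallest p, and for each member the 3 named genes with the highest r. For 1 gene that this rule names, the result is not reported here. Symbols of all 8 members were found in RefSeq's table for GRCz12tu, another build, from which no coordinates were taken. No sequence of the genes was used here.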

Additional observations from a re-analysis of the deposited data

Results flagged for a closer look

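Within each group the highest and the lowest tumour were compared with the rest by Dixon's gap test for 7 genes and 5 ratios, 24 groups of values in all, of which 6 held a tumour that stood apart. On normally distributed, independent values chance gives about 1 in 20 such groups. The genes were compared on linear CPM, on which gaps at the high end are wider beside the range than on log2 CPM. The permutation and pair tests used log2 CPM, and whether the genes' flags hold on that scale was not tested. In mmp2, R860Q R159 was at 5.75 log2 CPM, with the other R860Q tumours at 3.07 to 4.39. As all groups also come from the same 9 tumours, the number of groups cannot be read against that share. R860Q R159 stood apart upward in 3 genes: mmp2 at 53.5 CPM (the other R860Q tumours 8.19 to 20.8 CPM), mmp9 at 163.05 CPM (the others 35.5 to 54.4 CPM) and timp2b at 264 CPM (the others 15.8 to 42.2 CPM). This was the tumour with the highest sum of skeletal muscle genes and the lowest sum of melanocyte genes of the R860Q group. R860Q R160 came next in both (muscle genes 3158 CPM, melanocyte genes 4355 CPM), with mmp2 at 16.7, mmp9 at 35.5 and timp2b at 15.8 CPM. Single melanocyte genes did not all follow their sum, as mitfa was highest of the R860Q group in R160, at 189 CPM. The part of muscle or melanocyte RNA in these levels was not tested. For mmp14a 1 tumour stood apart upward in each group, R860Q R157 at 16.2 CPM (the others 6.54 to 8.53 CPM) and EGFP R165 at 30.6 CPM (the others 3.87 to 8.44 CPM). In R860Q R158 the log2 ratio of mmp2 to the TIMP2 genes stood apart downward at -4.26 (the others -3.06 to -2.71). EGFP R165, although highest in mmp2, mmp9 and mmp13a, did not pass this test there. With 4 EGFP tumours the test asks for a wider gap than with 5 R860Q tumours, so the flags do not rank R159 and R165. In mmp2 EGFP R165 was at 86.8 CPM (the other EGFP tumours 9.29 to 24.6 CPM).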

How the results depend on the processing

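No member passed under any of 20 alternatives, where the lowest adjusted p was 0.603. Of 140 log2 fold changes 119 kept their sign and 21 turned, none of them a call. Genes called numbered 0 by edgeR and 68 by DESeq2; the count was 1 without EGFP R162 and R164 (5_8S_rRNA, higher), 1 without EGFP R165 and 1 without R860Q R159 and EGFP R165 (grn1 in both, lower), 1 in the muscle-poor tumours alone (sc:d217, higher), and 0 to 1 with single tumours left out. The pair R159 and R165 and the muscle-poor set (R860Q R157 and R161, EGFP R163 to R165) were chosen after seeing the data.

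With single tumours left out, log2 fold changes ran from -1.11 to 0.46 for mmp2, -1.49 to 0.014 for mmp9, -0.76 to 0.57 for mmp13a, -0.79 to 0.48 for mmp14a, -0.17 to 0.13 for mmp14b, 0.026 to 0.57 for timp2a and -1.08 to 0.65 for timp2b. Without EGFP R165 the sign turned in mmp2, mmp9, mmp13a and mmp14a. Without R860Q R159 and EGFP R165 together it turned in mmp13a (0.36), mmp14a (0.55), mmp14b (-0.13) and timp2b (-1.05), but not in mmp2 (-0.089) or mmp9 (-0.57). For mmp14b it also turned with DESeq2's size factors (-0.0025), DESeq2 (-0.0024), voom (-0.077) and the muscle covariate (-0.052), for timp2a without EGFP R162 and R164 (-0.23), and for timp2b with voom (-0.53), the muscle covariate (-0.67) and in the muscle-poor tumours (-0.95). The cause was not tested.

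Of 50 ratio differences 6 turned, all with single tumours left out: these ran from -0.27 to 0.027 for the MMP14 over the TIMP2 genes, -0.70 to 0.0011 for mmp2 over them, -0.35 to 0.41 for mmp14a over mmp14b, and -0.077 to 1.37 for timp2a over timp2b. Of 63 correlations 6 turned, all without the 2 tumours farthest on the x axis: mmp2 with mmp13a (-0.154) and timp2b (-0.011), mmp9 with timp2a (-0.356), mmp13a with mmp14a (-0.229), mmp14a with timp2a (-0.367), and timp2a with timp2b (0.577). No paired analysis was possible because no replicate number occurs in both groups. The libraries of EGFP R164 and R162 were the smallest, and mmp11b had at most 6 reads in any library.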

Other observations

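Below the count filter lay mmp11a, the paralogue of mmp11b, and mmp19, both singled out here after their values were seen. Reads on mmp11a numbered 7, 0, 1, 4 and 3 in R860Q tumours R157 to R161, and 5, 33, 15 and 42 in the EGFP tumours in order. On the normalised scale these are 0 to 0.582 CPM in R860Q and 1.22 to 2.72 CPM in EGFP tumours, with no overlap. The share without overlap was 1.43% among the genes above the filter, and it was not computed for genes below it. In the edgeR fit without the filter its log2 fold change was -2.60 ± 0.76 (SE) and its adjusted p 0.580, so it did not pass. EGFP R162, at 5 reads, holds fewer than R860Q R157 with 7, and the order of these libraries rests on the scaling by depth. Reads on mmp19 numbered 8, 1, 0, 1 and 0 in R860Q and 12, 10, 7 and 15 in EGFP tumours. These are 0 to 0.597 CPM and 0.820 to 2.93 CPM, which again do not overlap. Here too the order rests on the scaling, as R860Q R157 holds 8 reads and EGFP R164 holds 7.

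Of the tandem TIMP4 genes, timp4.3 (also picked after its values were seen) was at 1.98 ± 0.871 CPM in R860Q and 5.65 ± 6.86 CPM in EGFP tumours (n = 5 and 4, SD; -1.55 ± 0.70 SE; edgeR adjusted p = 0.809). Without EGFP R165, which had 15.9 CPM, its value was -0.17. The protease nexin serpine2, an inhibitor picked in the same way, was at 68.6 ± 38.7 CPM in R860Q and 34.2 ± 9.46 CPM in EGFP tumours (1.001 ± 0.45 SE; edgeR adjusted p = 0.805).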
